A study of Homo sapiens with 6 samples.

Results

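The genes described here are the well-detected numbered zinc finger genes (ZNF followed by a number) of NCI-H460, an established human lung cancer line (large cell carcinoma), with ZNF121 placed among them. Members were chosen by their detection p: a gene was taken where a probe of it had a value under 0.01 on the untreated and scramble arrays of both cell populations. That gave 232 of the 443 ZNF genes named on the array, among 12101 genes measured in all, and 9273 genes of any name met the same detection rule. ZNF121 met the rule itself. The rule used signals of these arrays, so the members' levels on those 4 arrays are a description. Because it asked nothing of the arrays from PNAs-A15 cells, it also favours a lower level there, and members are therefore read against the 9273 genes chosen the same way.

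Each of 6 groups had 1 Illumina HumanHT-12 v4 array and no replicate. They were CSC-rich cells, a spheroid-grown population of NCI-H460 enriched for cancer stem cells, given PNAs-A15, given scramble or left untreated, and the parental (wild type) cells given PNAs-A15, given scramble or left untreated. PNAs-A15 is a code name that the sources used here do not explain, and the CSC-rich label shortens it. The PNAs-A15 treatment lasted 6 h. All groups were in RPMI medium, and only the parental culture got serum (10%), which means that an effect of medium and one of population cannot be told apart.

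Most ZNF proteins read DNA through arrays of C2H2 fingers, small folds held by a zinc ion. Many also carry a KRAB domain, which recruits the corepressor TRIM28 and through it the histone H3 lysine 9 methyltransferase SETDB1, and this machinery silences mobile elements. The family grew by tandem duplication, and a large share of its genes lies in clusters on chromosome 19. A change in RNA per cell and a change in the make-up of the culture cannot be told apart in such bulk samples.

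The parental PNAs-A15 array stood apart from the others. It detected 36.5% of probes at p under 0.05, against 38.5% to 42.8% on the other 5 arrays, and its correlation with them over genes was 0.829 to 0.873, against 0.912 to 0.992 among those 5. Of the epithelial markers listed, KRT8 and KRT19 were measured, while EPCAM, KRT18 and CDH1 were not detected on 2 arrays. PROM1, NANOG and POU5F1, defining stem cell markers, also failed that filter over the 6 arrays, while CD44, SOX2, ALDH1A1 and ABCG2 were measured. In untreated cells those 4 differed by 0.01, −0.36, −0.57 and −0.45 (log2, CSC-rich minus parental), and none passed the test in CSC-rich cells, with or without the PNAs-A15 arrays. The median of the 4 was −0.40 untreated, 0.68 with scramble and 0.13 with PNAs-A15, so its direction moved with the treatment. The defining immune and vessel markers PTPRC, CD3E, PECAM1 and VWF did not pass the filter on detection. All 5 markers of dividing cells fell in CSC-rich cells (limma, median log2 difference −3.68, with MKI67 and AURKB undetected on some CSC-rich arrays).

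ZNF121, a C2H2 zinc finger protein gene, was the one member that was low on both PNAs-A15 arrays. Its deposited signal was 93.5 in CSC-rich cells given PNAs-A15, against 311.5 with scramble and 311.3 untreated. In parental cells it was 88.0 with PNAs-A15, against 471.3 with scramble and 584.3 untreated. The values with PNAs-A15 lay at the level of negative controls (detection p 0.9 and 0.94), and the other 4 had a detection p of 0. In each population the PNAs-A15 value, from 1 array, lay below both control values. Of the 9273 genes of the detection rule, ZNF121 was the 1 gene undetected on both PNAs-A15 arrays.

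On the normalized log2 scale, ZNF121 was −3.23 from scramble and −2.77 from untreated cells in the CSC-rich population. Its level with PNAs-A15 is only a bound, and the fold it allows moves with the scaling. Against the lowest detected signal of the array, it was at least 4.57-fold lower than with scramble and at least 3.32-fold lower than untreated on the normalized scale, and at least 1.95-fold lower than either on the deposited signals, which still hold the background. In parental cells the differences were −3.43 and −3.99. The bounds there were at least 4.16-fold and 6.12-fold lower on the normalized scale, and at least 3.14-fold and 3.89-fold lower on the deposited signals. Scramble and untreated cells differed less, by 0.46 in CSC-rich and −0.56 in parental cells. Since ZNF121 was chosen for this pattern and rests on 1 probe, no test is given.

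**Figure D1:**
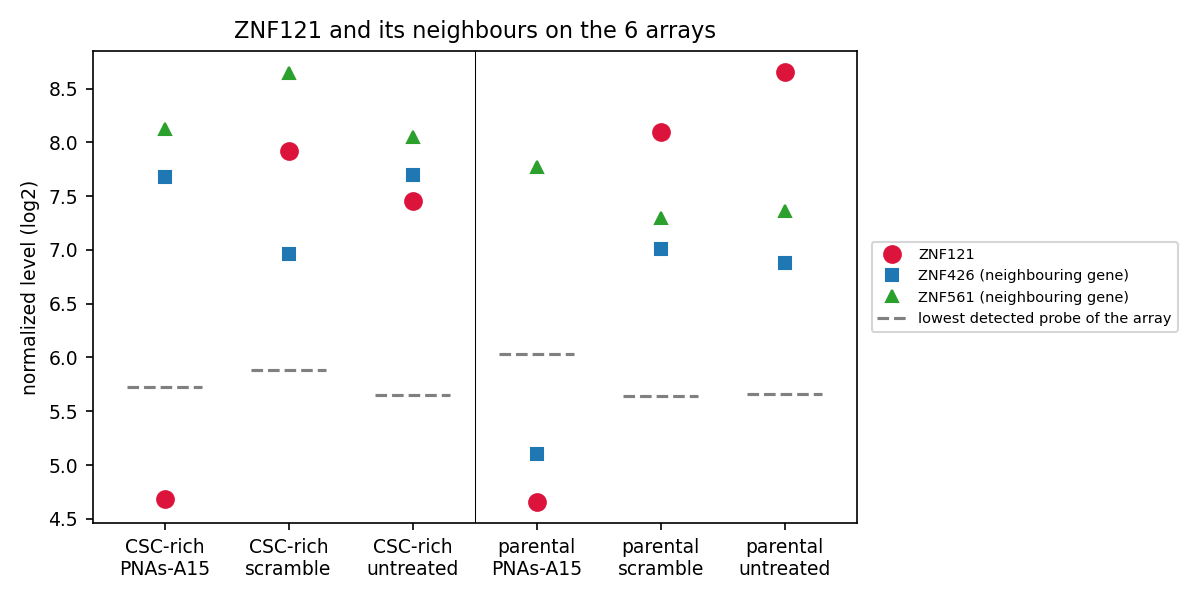
Normalized log2 level (vertical axis) of ZNF121 and its neighbours ZNF426 and ZNF561 on each of the 6 arrays, with CSC-rich arrays left of parental ones and a dashed line at the lowest detected probe of each array. ZNF121 lies under the line on both PNAs-A15 arrays, at 4.69 and 4.66, and between 7.46 and 8.65 on the others; levels of different probes are not comparable.

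In CSC-rich cells no other member came near this difference. ZNF121 was the lowest of the 232 members against scramble and against untreated cells, and 0 other members lay below its normalized bound in either comparison. The next member was ZNF680 at −1.28 against scramble, and ZNF644 at −0.81 against untreated cells. In parental cells 24 other members were undetected with PNAs-A15 as well, so its place there is not ranked. By their normalized values, ZNF121 and REEP3 were the only 2 of 12101 genes at least 2-fold lower with PNAs-A15 than with both controls in both populations. REEP3, a gene for an endoplasmic reticulum protein and no member, was −1.22 from scramble and −1.18 from untreated in CSC-rich cells. It was not detected in parental cells with PNAs-A15, where its bound was at least 1.43-fold lower than scramble and at least 2.29-fold lower than untreated, so a 2-fold difference from scramble is not shown.

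The profile nearest to that of ZNF121 over the 6 arrays was that of ZNF273, with a root mean square distance of 0.998 on the centred log2 scale. ZNF184 (1.02) and ZNF235 (1.07) followed, and the median over members was 1.78. Like ZNF121, all 3 were undetected on the parental PNAs-A15 array, where their levels are only bounds. The distances rest in part on such levels. In CSC-rich cells these 3 lay closer to their controls than ZNF121 did. There, with PNAs-A15, scramble and no treatment, ZNF273 had log2 levels of 6.26, 7.46 and 6.51, ZNF184 of 6.85, 7.36 and 7.36, and ZNF235 of 6.48, 7.42 and 6.82.

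The 250 bases before the start of ZNF121 are shown because its PNAs-A15 difference is the largest in the family in CSC-rich cells. Beside them are those of ZNF217, ZNF333 and ZNF84, which are among the most extreme members in comparisons below. They are RefSeq's, in GRCh38.p14, on the gene's strand, at chr19:9584505-9584754 (minus) for ZNF121, chr20:53593840-53594089 (minus) for ZNF217, chr19:14689798-14690047 (plus) for ZNF333 and chr12:133037259-133037508 (plus) for ZNF84. Capitals mark letters of the GC box (GGGCGG) and the E-box (CACGTG) on either strand.
ZNF121: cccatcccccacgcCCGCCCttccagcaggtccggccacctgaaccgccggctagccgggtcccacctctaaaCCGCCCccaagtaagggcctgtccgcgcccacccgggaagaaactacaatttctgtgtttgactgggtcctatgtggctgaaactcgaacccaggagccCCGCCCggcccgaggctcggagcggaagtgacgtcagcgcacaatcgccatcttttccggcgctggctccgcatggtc
ZNF217: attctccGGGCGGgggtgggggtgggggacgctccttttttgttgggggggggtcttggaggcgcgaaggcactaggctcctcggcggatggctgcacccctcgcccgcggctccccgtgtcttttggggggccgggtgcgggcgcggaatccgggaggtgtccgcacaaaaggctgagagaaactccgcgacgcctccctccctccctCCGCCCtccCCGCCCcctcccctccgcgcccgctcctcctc
ZNF333: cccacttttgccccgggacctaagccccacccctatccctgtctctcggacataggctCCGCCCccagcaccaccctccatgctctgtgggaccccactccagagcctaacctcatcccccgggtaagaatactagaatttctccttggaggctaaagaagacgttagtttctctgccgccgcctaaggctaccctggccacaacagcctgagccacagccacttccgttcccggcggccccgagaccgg
ZNF84: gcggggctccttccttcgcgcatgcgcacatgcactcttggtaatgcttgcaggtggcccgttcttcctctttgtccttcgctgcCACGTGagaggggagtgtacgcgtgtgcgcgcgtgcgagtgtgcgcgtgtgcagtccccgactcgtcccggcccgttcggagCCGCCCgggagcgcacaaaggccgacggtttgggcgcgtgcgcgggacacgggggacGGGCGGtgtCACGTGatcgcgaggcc
The ZNF121, ZNF217 and ZNF333 stretches held 3, 3 and 1 GC boxes. That of ZNF84 held 2, with 2 E-boxes. A match is a description of letters and not a site.

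The genes beside ZNF121 on chromosome 19 had other values. ZNF426, ZNF121, ZNF561 and ZNF562 follow each other there. PNAs-A15 minus untreated in CSC-rich cells was −0.01 for ZNF426 and 0.07 for ZNF561, against −2.77 for ZNF121. Against scramble in parental cells, ZNF426, undetected with PNAs-A15, was at least 1.96-fold lower (1.85-fold on the deposited signals) and ZNF561 was 0.48.

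Treatment of CSC-rich cells with PNAs-A15 left the rest of the family close to untreated cells. The median member difference was −0.06. No member (0 of 232) was 2-fold or more higher, and 1, ZNF121, was lower by that much. Of the genes of the detection rule, 0.0755% were at least 2-fold higher and 0.0647% lower. On detection, 1 of 232 members was lost on this array, against 4 of 9273 genes (0.0431%).

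Against scramble, 11 members were at least 2-fold higher and 8 at least 2-fold lower in CSC-rich cells (median −0.20), beside 5.47% and 2.8% of the genes of the rule. The highest were ZNF444 (1.68), ZNF394 (1.43), ZNF577 (1.32), ZNF483 (1.31), ZNF14 (1.20) and ZNF69 (1.14). After ZNF121, the lowest were ZNF680 (−1.28), ZNF684 (−1.21), ZNF711 (−1.20), ZNF273 (−1.19) and ZNF800 (−1.14). The split moved with the scaling, to 22 and 2 with median scaling and 11 and 1 on the deposited signals, where the median was 0.09. The levels of 3 named members show where the scramble array lay. ZNF444 had a log2 level of 8.65 with PNAs-A15, 6.97 with scramble and 7.78 untreated, and ZNF394 had 12.87, 11.43 and 12.42. ZNF711 had 7.05, 8.25 and 7.43. In each of the 3 the untreated level lay between the other two.

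In parental cells the members spread widely around scramble, in both directions. With PNAs-A15, 68 of 232 were at least 2-fold higher and 38 lower (median 0.50), beside 20.4% and 18.5% of the genes of the rule. Against untreated cells the counts were 72 and 37 (median 0.54), beside 20.0% and 19.4%. The 2 comparisons share the PNAs-A15 array. The split turned with the scaling: against scramble, median scaling gave 22 higher and 63 lower (median −0.18, rule genes −0.38), and the deposited signals gave 8 and 57 (median −0.38, rule genes −0.56). Against untreated cells the same settings gave 26 and 64, and 11 and 49. On that array, 25 of 232 members (10.8%) were not detected, against 610 of 9273 genes (6.58%). The members were also dimmer, with a median log2 level over the arrays of 8.57, against 9.75 for the genes of the rule, and the part of this in the shares was not tested.

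Among the lowest members by normalized value against scramble was ZNF217 (−4.00), a breast and other cancer oncogene that binds corepressors. ZNF365 (−3.63), known for a role in genome stability, was another. Neither was detected with PNAs-A15, so they were at least 7.60-fold and 8.03-fold lower on the normalized scale, and at least 5.04-fold and 5.28-fold lower on the deposited signals. ZNF217 had log2 levels of 4.97 with PNAs-A15, 8.96 with scramble and 9.29 untreated in parental cells, against 9.37, 10.24 and 9.85 in CSC-rich cells, where no such loss was seen. ZNF45 (−2.82) was also low and was still detected. ZNF664, ZNF182, ZNF184 and ZNF605 were not detected with PNAs-A15. On the normalized scale they were at least 3.15-fold, 2.62-fold, 2.77-fold and 3.87-fold lower than with scramble, and on the deposited signals at least 2.57-fold, 2.25-fold, 2.34-fold and 2.96-fold lower. The highest were ZNF467 (2.66), ZNF827 (2.60), ZNF609 (2.45), ZNF174 (2.36), ZNF875 (2.33) and ZNF211 (2.21). ZNF467 had log2 levels of 10.71 with PNAs-A15, 8.05 with scramble and 8.35 untreated, while in CSC-rich cells its 3 levels were 9.52, 9.48 and 9.28.

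Different probes of the same gene disagreed on the parental PNAs-A15 array. Of 43 pairs of rule-passing probes from 41 members, 14 were at least 4-fold apart in PNAs-A15 minus scramble, and 20 had the same sign. For ZNF266 the probes gave 1.93 and −1.91, and for ZNF451 1.73 and −1.97, both chosen for their disagreement after the values were seen. Of members named for other values, ZNF14, ZNF174, ZNF514, ZNF81 and ZNF84 were among the 14. In CSC-rich PNAs-A15 minus scramble, 0 of the 43 pairs were that far apart and 28 had the same sign. The other 191 members had 1 rule-passing probe, so their values on the parental PNAs-A15 array have no such check. What sets the probes apart there was not tested.

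**Figure D2:**
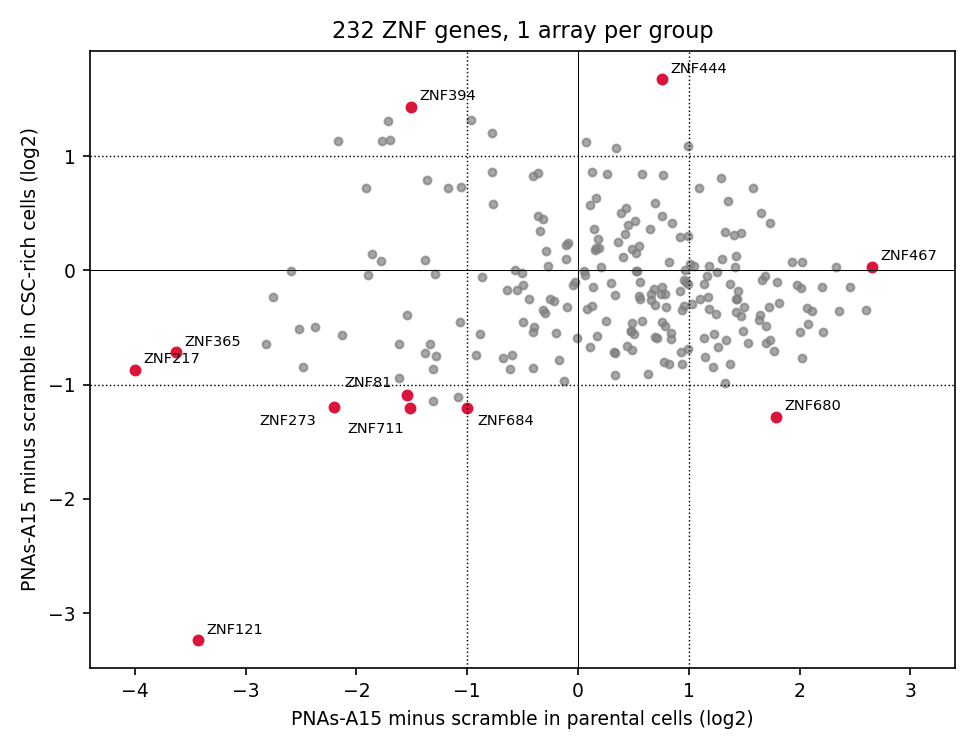
PNAs-A15 minus scramble, log2, in parental cells (horizontal) and CSC-rich cells (vertical) for the 232 members, with dotted lines at 2-fold and 11 of the named members labelled. ZNF121 lies alone at −3.23 in CSC-rich cells, while members range from −4.00 to 2.66 in parental cells.

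At least 2-fold lower in both populations against scramble were 7 members, ZNF121, ZNF273, ZNF684, ZNF711, ZNF800, ZNF81 and ZNF83. They are 87.5% of the 8 lower in CSC-rich cells and 18.4% of the 38 lower in parental cells. The corresponding shares for the genes of the detection rule were 45.0% and 6.83% (117 genes). No member was at least 2-fold higher in both, against 5 genes of the rule. The counts for the 6 other than ZNF121 rest on the CSC-rich scramble array, since none was 2-fold lower than untreated there. ZNF83 had log2 levels of 9.61, 10.72 and 10.07 in CSC-rich cells with PNAs-A15, scramble and no treatment. Of these, ZNF273, ZNF711 and ZNF81 were not detected on the parental PNAs-A15 array and were there at least 1.79-fold, 1.94-fold and 2.58-fold lower on the normalized scale, and at least 1.75-fold, 1.84-fold and 2.22-fold lower on the deposited signals. For ZNF81, a second probe gave 1.22 in place of −1.55 in parental cells.

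Over both populations, limma's additive model of population and treatment called 0 of 12101 genes for PNAs-A15 against scramble (0.0% up and 0.0% down), with a lowest adjusted p of 0.785 at 2 residual degrees of freedom. At an unadjusted p under 0.05 there were 503 genes (4.16%), 66 higher and 437 lower. Of the 232 members there were 18 (7.76%), 2 higher and 16 lower. Most of the genes thus lay in the same direction as these 16. It is also the one the detection rule favours, and the part of that rule was not tested.

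In parental cells scramble and untreated arrays differed little, with 0 of 232 members at least 2-fold apart from untreated and a range of −0.89 to 0.56 (SD 0.26), beside 0.129% and 0.0971% of genes. The ends of the range were ZNF711 (−0.89) and ZNF81 (−0.78), and ZNF629 (0.56) and ZNF668 (0.55). In CSC-rich cells, 1 member was at least 2-fold higher with scramble, ZNF365 at 1.09, and 2 were lower, ZNF483 at −1.13 and ZNF219 at −1.02, beside 0.474% and 1.97% of genes.

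**Figure D3:**
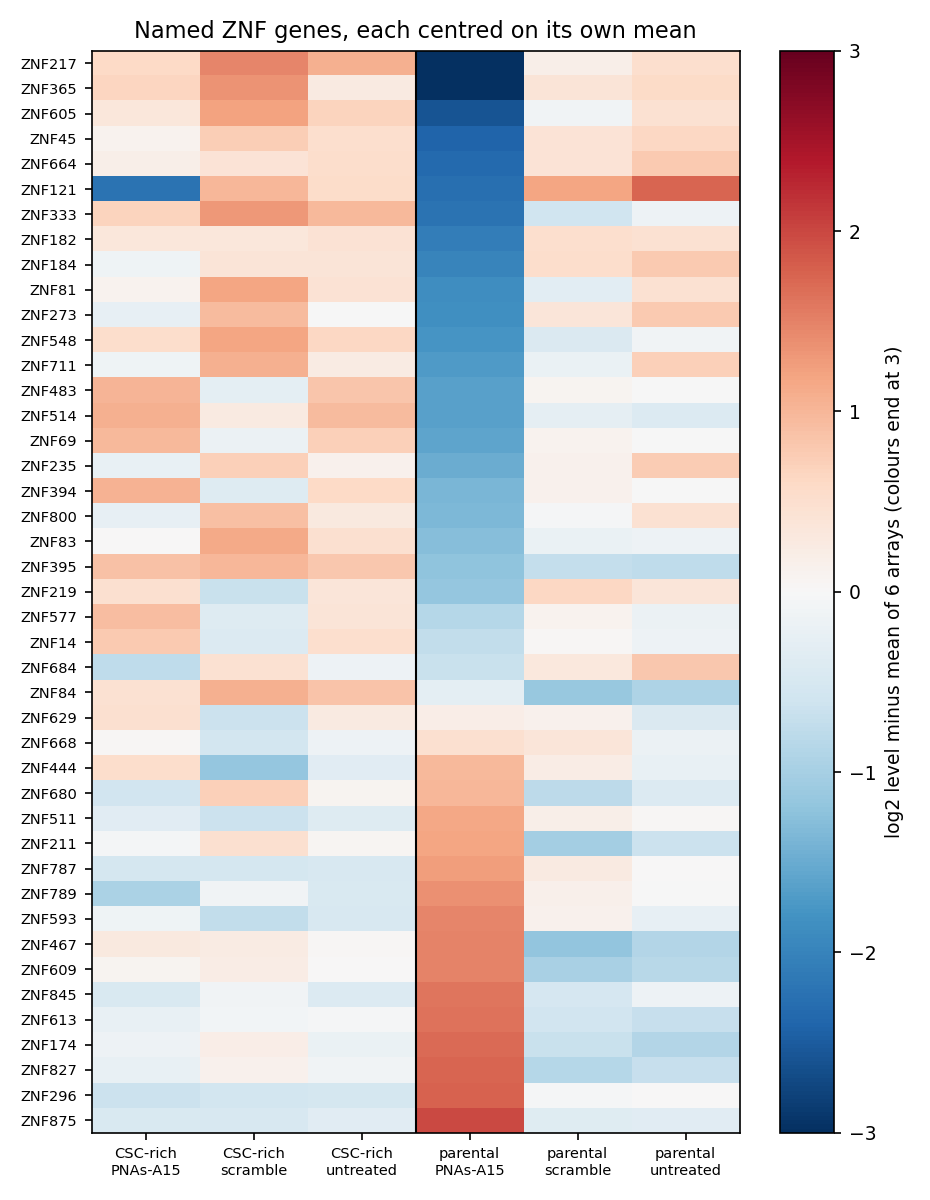
Log2 level of the named members on the 6 arrays, each centred on its own mean over the arrays, with PNAs-A15, scramble and untreated arrays of CSC-rich cells left of those of parental cells. ZNF121 is low on both PNAs-A15 arrays, and most other large departures lie on the parental PNAs-A15 array.

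The comparison of the populations gave different pictures by treatment. In untreated CSC-rich cells, 15 of 232 members (6.47%) were higher by 2-fold or more and 1, ZNF121, lower, beside 6.15% and 5.23% of the genes of the rule. The median member difference was 0.29 and 173 of 232 lay above 0, against a median of 0.05 for the genes of the rule. With scramble the counts were 43 and 3 (median 0.38), beside 16.4% and 11.6% with a median of 0.18. With PNAs-A15 they were 43 and 53 (median −0.11), beside 20.4% and 19.6% with a median of −0.12.

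The size of this shift depended on the scaling. The member and rule-gene medians for untreated cells were 0.21 and −0.03 with median scaling, and 0.18 and −0.01 on the deposited signals. For scramble they were 0.06 and −0.10, and −0.12 and −0.25. The member median stayed above that of the rule genes in these 4, with the sign itself turning for scramble on the deposited signals. Members at least 2-fold higher and lower with scramble numbered 27 and 14 with median scaling and 5 and 11 on the deposited signals. With PNAs-A15 they numbered 66 and 19, and 54 and 9, and the median turned to 0.46 and 0.49. That turn was general, with medians of 0.33 and 0.45 for the rule genes.

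**Figure D4:**
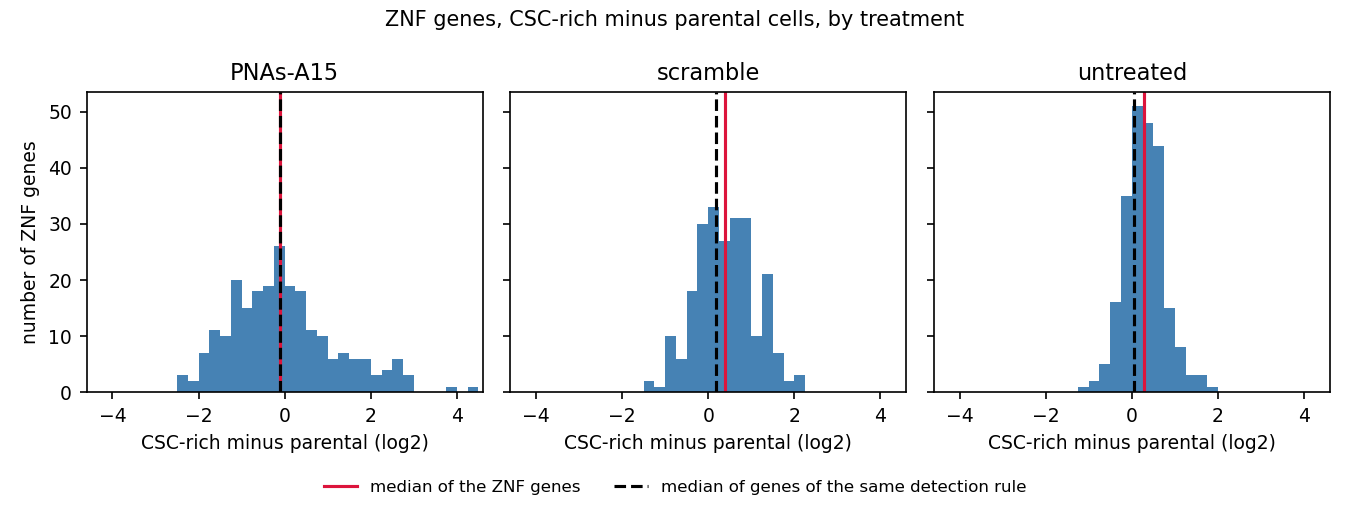
Number of members (vertical axis) by CSC-rich minus parental log2 difference (horizontal axis) in PNAs-A15, scramble and untreated cells, with a solid line at the median of the members and a dashed one at that of the genes of the same detection rule. The member medians are −0.11, 0.38 and 0.29, and the spread is widest with PNAs-A15.

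In limma's model over all 6 arrays, 1 member passed an adjusted p of 0.05. ZNF395, known as a hypoxia-induced factor, was higher in CSC-rich cells by 1.79 ± 0.33 (log2, SE, 3 arrays against 3; adjusted p = 0.0453). Its log2 levels were 10.70 with PNAs-A15, 10.82 with scramble and 10.64 untreated in CSC-rich cells, against 8.61, 9.11 and 9.07 in parental cells, with no overlap. The adjusted p was 0.121 with median scaling, 0.165 on the deposited signals, 0.0898 without a filter on dim probes, 0.0561 with the stricter filter, 0.196 without either scramble array and 0.147 without either untreated array, with 1.64 to 1.90 for the difference. Of all genes, 104 were higher and 180 lower (0.859% and 1.49%), so 1 of 232 members is near that share. At an unadjusted p under 0.05 there were 25 members (10.8%), 22 higher and 3 lower. Of all genes there were 2307 (19.1%), 1259 higher and 1048 lower.

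Other high members did not pass in this fit. ZNF217 was 2.08 ± 0.71 (adjusted p = 0.187), a value that includes its undetected parental PNAs-A15 array, and ZNF333 was 1.96 ± 0.42 (0.0697). ZNF333 was not detected on that array either. It had log2 levels of 7.87, 8.51 and 8.20 in CSC-rich cells with PNAs-A15, scramble and no treatment, against 5.01, 6.62 and 7.06 in parental cells. ZNF84 was 1.58 ± 0.39 (0.103), ZNF548 1.55 and ZNF514 1.53. ZNF514 was also undetected on the parental PNAs-A15 array, and its difference was 0.95 without the PNAs-A15 arrays. The lowest were ZNF296 (−1.15 ± 0.46, adjusted p = 0.244), ZNF787 (−1.02), ZNF789 (−1.01), ZNF511 (−0.90), ZNF593 (−0.90) and ZNF875 (−0.85), each highest on the parental PNAs-A15 array. For ZNF875 the parental levels were 8.79 with PNAs-A15, 6.47 with scramble and 6.48 untreated, against 6.37, 6.34 and 6.47 in CSC-rich cells.

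Without both PNAs-A15 arrays, the model keeps 4 arrays and 1 residual degree of freedom. In CSC-rich cells it called 1284 genes higher and 1076 lower (10.6% and 8.89%). Of the members, it called 27 higher (11.6%) and 0 lower, beside 10.7% and 7.95% of the genes of the rule. The share called higher is near that of the rule genes. A positive difference was found in 184 of the 232 members, beside 5333 of 9273 genes of the rule. Named after their values were seen, the leading members were ZNF84 (1.99 ± 0.31, adjusted p = 0.000561), ZNF558 (1.85 ± 0.31, 0.000989), ZNF627 (1.68 ± 0.33, 0.0028) and ZNF395 (1.64 ± 0.31, 0.00208). ZNF529 (1.60), ZNF362 (1.55), ZNF333 (1.51) and ZNF548 (1.18) passed as well, and ZNF217 (0.92, adjusted p = 0.0604) did not. The lowest were ZNF444 (−0.75) and ZNF121 (−0.69), neither past the threshold.

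**Figure D5:**
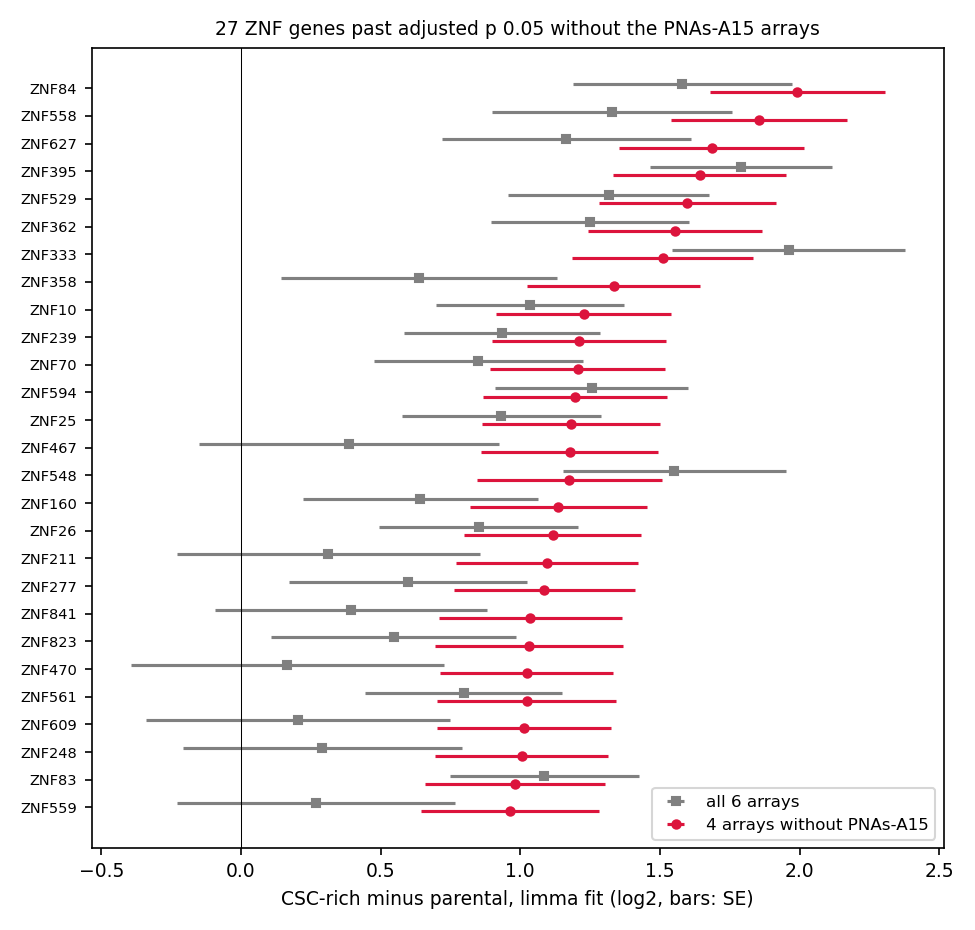
CSC-rich minus parental log2 difference (horizontal axis; bars, standard error) from limma for the 27 members called without the PNAs-A15 arrays, with circles for that fit of 4 arrays and squares for all 6 arrays. All 27 lie above 0 in both fits, led by ZNF84 at 1.99 without and 1.58 with those arrays. The 27 were chosen by the fit of 4 arrays, and the fit of 6 holds the same 4, so the shared sign is no separate support.

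ZNF84 had log2 levels of 9.70 with scramble and 9.49 untreated in CSC-rich cells, against 7.50 and 7.71 in parental cells. Its second probe gave CSC-rich minus parental differences of 1.96 untreated and 2.52 with scramble, beside 1.79 and 2.20 for the first. ZNF627 had second-probe values of 1.18 and 1.16 beside 1.22 and 2.15, and ZNF333 0.82 and 0.97 beside 1.13 and 1.89. In these 3 genes both probes pointed the same way. Over the 43 pairs, 30 had the same sign in untreated cells and 0 were 4-fold apart.

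The corepressors that KRAB zinc finger proteins work through were read in the same test between populations over all 6 arrays. Of 25 listed symbols, 24 were on the array and 23 were measured. In CSC-rich cells 0 rose and 1 fell past the threshold, beside 0.859% and 1.49% of all genes. The 1 that fell was SUV39H1, a histone H3 lysine 9 methyltransferase, at −2.15 ± 0.36 (limma, adjusted p = 0.0346). TRIM28 was −1.01 ± 0.46 and SETDB1 0.12 ± 0.32, neither past the threshold. TRIM28 had log2 levels of 10.35 with PNAs-A15, 9.06 with scramble and 9.74 untreated in CSC-rich cells, against 10.30, 11.17 and 10.70 in parental cells. Without the PNAs-A15 arrays, TRIM28 (−1.54, adjusted p = 0.00652), SUV39H1 (−1.84), UHRF1 (−1.33), DNMT3B (−1.33) and CBX5 (−1.19) were lower past the threshold, beside 8.89% of genes. SMARCAD1, a chromatin remodeller, was 2.15 ± 0.75 over 6 arrays, a value that includes its undetected parental PNAs-A15 array, and 0.93 (adjusted p = 0.0657) without the PNAs-A15 arrays. The largest differences over 6 arrays also took in CBX3 (−1.05) and CBX5 (−1.02), which encode heterochromatin proteins.

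Some markers of other kinds moved in the same comparison. The summed deposited signal of the 5 markers of dividing cells was 1661 to 1898 on the CSC-rich arrays, against 13245 to 21661 on the parental arrays, and MKI67 was detected on the 3 parental arrays alone. Without the PNAs-A15 arrays, the keratins KRT8 (−1.70, limma adjusted p = 0.00223) and KRT19 (−1.66, 0.00379) were lower and PDGFRB, a receptor of fibroblasts and pericytes, was higher (1.44, 0.00589) in CSC-rich cells. The summed signal of PDGFRB and DCN was 1745 to 1872 in CSC-rich cells, against 1074 to 1278 in parental cells. DCN itself was 0.22 without the PNAs-A15 arrays (limma, adjusted p = 0.698), not past the threshold. COL1A1 and COL1A2, from the same list of markers, did not pass the filter on detection. The summed signal of the immune markers CD14 and LYZ was 398 to 417, against 554 to 734. These 2 went opposite ways without the PNAs-A15 arrays, CD14 at −0.67 and LYZ at 0.37 (limma, adjusted p = 0.154 and 0.542). Only 1 immune marker was detected on each of the CSC-rich PNAs-A15, parental scramble and parental untreated arrays. The part of any of these in the differences of TRIM28, UHRF1 and the ZNF members was not tested.

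Related zinc finger families were read in the same untreated pair. The median CSC-rich minus parental difference was 0.31 over 30 measured ZBTB genes, 0.43 over 9 ZSCAN genes, 0.16 over 5 ZKSCAN genes and 0.01 over 10 ZFP genes. These genes passed the looser filter of detection p under 0.05 on 2 arrays. Under the members' own detection rule the medians were 0.20 (23 ZBTB), 0.49 (8 ZSCAN), 0.16 (5 ZKSCAN) and 0.04 (7 ZFP). The ZNF members had 0.29. In the 6-array fit, 1 measured gene of these families was called higher and 0 lower, beside 0.859% and 1.49% of all genes. It was ZFP36, which encodes an RNA-binding protein, at 2.29 ± 0.40 (limma, adjusted p = 0.0393, named after its value was seen).

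A RefSeq promoter matched 202 of the 232 members. Of them, 92 (45.5%) lay on chromosome 19, against 6.39% of the 7651 genes of the detection rule with a promoter and 5.53% of all 27305. Neighbouring members formed 36 runs that hold 92 members, the longest being ZNF615, ZNF614, ZNF432, ZNF841 and ZNF616. Members on chromosome 19 and elsewhere had median CSC-rich minus parental differences of 0.33 and 0.26 in untreated cells, and of 0.42 and 0.40 with scramble. The other 397 rule genes on chromosome 19 had medians of −0.06 and −0.33 there.

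In the 250 bases before the start, the ETS letters CCGGAAG (either strand) were found in 29.2% of members, 17.1% of rule genes and 8.82% of all promoters. CCAAT stood in 47.0%, 35.8% and 33.0%, GGGCGG in 62.9%, 68.2% and 42.3%, and CACGTG in 5.94%, 9.33% and 6.49%. TATAAA was rare, in 1.98%, 5.33% and 11.1%. The median GC content was 62.0%, 64.8% and 58.0%. Neither ETS letters nor CCAAT stand in the 4 stretches printed above. These shares are a description.

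The detection rule passed close to some genes. Just inside it were ZNF326, ZNF490 and ZNF875, with a highest detection p of 0.00909 on the 4 arrays. Just outside were ZNF180, ZNF34 and ZNF57, at 0.0104. ZNF490 had signals of 189.5 to 235.9 on the untreated and scramble arrays, and ZNF180 of 185.0 to 226.6.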

How the data were processed

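The deposited table gives, for 47323 probes on 6 arrays, a linear intensity and a detection p-value, per the file headers, with GenomeStudio 2011.1 named in the submitters' processing notes. No other step of the authors is stated in the sources used here. The deposited matrix held the same intensities (100% of cells, relative tolerance 1e-06), which were neither centred nor normalized. Of the probes, 30113 had 1 gene symbol in the platform annotation. From the deposited intensities, log2 levels were computed with limma 3.58.1 in R 4.3.3 (normal-exponential background inferred from the detection p-values, offset 16, then quantile normalization).

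A probe was kept where 2 or more arrays had a detection p under 0.05, and the brightest stood for its gene. With 1 array per group, pairs of arrays were described by 2-fold counts without a test. P-values came from limma's additive model of population and treatment (2 residual degrees of freedom, Benjamini-Hochberg, threshold 0.05). Nothing says that the arrays came from separate cultures, so p-values reflect the spread among these arrays alone, which may be technical. A fold written "at least" was taken against the lowest detected signal on the dim array, on the scale named, and moves with the normalization.

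The members and gene lists were chosen with earlier results of these data known. Members named were ZNF121, the 6 highest and 6 lowest in the population fit, the most extreme in each treatment pair, and those lower in both populations. Grouping by protein domain was not made here. The number of arrays limits the precision.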

Additional observations from a re-analysis of the deposited data

Results flagged for a closer look

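By the normalized values of 5 named members, PNAs-A15 minus scramble was at least 2-fold in each population and of opposite sign, and the difference between the populations was not tested, since each value is 1 array minus 1 array. ZNF219 was 1.13 in CSC-rich cells and -1.77 in parental cells. ZNF394 was 1.43 and -1.51, and ZNF483 was 1.31 and -1.72, CSC-rich cells first. ZNF69 was 1.14 in CSC-rich cells and -1.69 in parental cells. ZNF680 had the other order, -1.28 in CSC-rich cells and 1.78 in parental cells. Against untreated CSC-rich cells the values of ZNF394 and ZNF483 were 0.44 and 0.18. ZNF549, outside the rule for named genes and added after its values were seen, makes 6 of 232 members (2.59%), near the 221 of 9273 genes of the detection rule (2.38%) that went opposite ways by as much.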

How the results depend on the processing

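No paired analysis was possible because the groups share no replicate numbers beyond 1 array each; the additive model already matches the populations by treatment. The rule gave 263 members at a detection p under 0.05, 196 with all 6 arrays required and 250 with lettered symbols. With CSC-rich against parental cells, 284 genes and 1 member passed over the 6 arrays. The genes numbered 111 with median scaling, 21 on the deposited signals, 0 without a filter on dim probes, 160 with detection p under 0.01 on 4 arrays, 435 with an intensity trend, 648 with population alone and 2360 without both PNAs-A15 arrays. The members numbered 0 with median scaling, on the deposited signals, without a filter and with the stricter filter, 2 with the mean of a gene's probes, 3 with population alone and 27 without both PNAs-A15 arrays. Leaving out 1 array in turn gave 92 to 2360 genes and 0 to 27 members; in the additive model this equals leaving out both arrays of that treatment. The lowest counts came without either scramble array, the highest without either PNAs-A15 array. For PNAs-A15 against scramble, leaving out 1 array gave 0 to 3497 genes and 0 to 89 members, the highest without the CSC-rich PNAs-A15 array, which leaves the parental one alone.

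Of members at least 2-fold apart, the parental PNAs-A15 minus scramble count higher was 22 with median scaling and 8 on the deposited signals, and lower 63 with median scaling. Against untreated cells it was 26 and 11 higher, and 64 lower with median scaling. In CSC-rich cells, PNAs-A15 minus scramble gave, with median scaling, 22 higher and 2 lower, and 1 lower on the deposited signals. Scramble minus untreated there was 0 higher with both, and lower 8 and 6 with those settings, 1 with an offset of 50 and 5 with the mean of probes. CSC-rich minus parental in untreated cells was 4 higher on the deposited signals and 9 with offset 50, and lower 2 with median scaling and 0 on the deposited signals. With scramble it was 27 and 5 higher, 14 and 11 lower, and 6 lower with the mean of probes. With PNAs-A15, median scaling gave 66 higher and 19 lower, and the deposited signals 9 lower. The other values compared were those of single named members, the number of members and the medians over members. Of them, 453 stayed close to the main value or on the same side of the threshold, 91 moved, 15 crossed the threshold upward and 8 downward. No population difference of a named member changed sign, nor did a pair difference of at least 2-fold. Smaller pair differences were not checked for sign. Medians did turn, as for parental PNAs-A15 minus scramble (0.50, and −0.18 with median scaling). The causes were not tested. Signals near the negative controls give only bounds.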
